A study of Danio rerio with 12 samples.

Results

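Tetrahydrobiopterin is the cofactor that tyrosine hydroxylase, the rate-limiting enzyme of dopamine and noradrenaline synthesis, needs for every reaction cycle. The genes described here are the 6 enzymes that make or recycle it: GCH1, gch2, PTS, pcbd1, qdpra and qdprb1. They were chosen by name, as the features so called among the 32312 listed in each of the study's 6 tables, and all 6 were found in every table.

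The study sorted cells by green fluorescence (GFP) from dissociated whole zebrafish embryos and larvae carrying a transgene meant to mark catecholaminergic cells, and sequenced 1 GFP-positive and 1 GFP-negative library in each of 6 experiments. At 24 h after fertilization there were GFP-positive and GFP-negative cells of the ETvmat2:GFP line and, separately, of the Tg(otpb.A:egfp)zc48 line, both read from total RNA with NanoCAGE, which sequences the capped 5′ ends of transcripts. GFP-positive and GFP-negative cells of fish carrying a th:Gal4VP16 driver and a UAS:EGFP responder were read at 36 and at 48 h, and those of a th:GFP BAC line at 72 and at 96 h, all by sequencing of amplified polyA RNA. In each experiment both libraries came from fish with the same transgene, so the GFP-negative library holds the remaining cells of the whole animal. The ETvmat2:GFP line marks posterior tuberculum and locus coeruleus neurons at 24 h and the otpb line marks ventral diencephalic dopaminergic and some preoptic neurons, per the series' design text. No group has a replicate: every interval below is an exact 95% interval for counting error only, no p-value was computed, and amplified reads are not independent molecules.

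The cofactor is made from GTP. GTP cyclohydrolase, encoded in zebrafish by the paralogues GCH1 and gch2, takes the first and rate-limiting step, PTS (6-pyruvoyltetrahydropterin synthase) the next, and sepiapterin reductase the last. Each hydroxylation leaves the cofactor oxidised, and it is restored by pcbd1 (pterin-4a-carbinolamine dehydratase) and then by quinoid dihydropteridine reductase, encoded by qdpra and qdprb1. Besides the tyrosine, tryptophan and phenylalanine hydroxylases, nitric oxide synthases use it. In zebrafish the same first steps also feed the yellow pteridine pigments of xanthophores, and gch2 is a widely used marker of these neural crest pigment cells.

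On the Zv9 build, GCH1 lies on chromosome 17 (14962921 to 14990381), gch2 on chromosome 12 (26612194 to 26618916), PTS on chromosome 12 (324152 to 326612), pcbd1 on chromosome 13 (25944859 to 25950424), qdpra on chromosome 14 (49812588 to 49832748) and qdprb1 on chromosome 1 (21619319 to 21625575). None of the 6 gene intervals overlapped another listed feature. Counted exon length was 6050 bases for GCH1, 1838 for gch2, 428 for PTS, 820 for pcbd1, 978 for qdpra and 1038 for qdprb1, so PTS gathers the fewest reads for a given transcript level in the polyA libraries. In the vmat2 experiment, where the table separates them, unique and total exon reads were equal for all 6 genes in both libraries.

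The libraries held very different numbers of exon reads. The vmat2 experiment had 918362 in GFP-positive and 1173909 in GFP-negative cells, and the otpb experiment 495373 and 1367216. The 36 h pair had 22779177 in GFP-positive and 21326333 in GFP-negative cells, the 48 h pair 25011503 and 27682819, the 72 h pair 52869 and 79653, and the 96 h pair 70510 and 63631. At 72 and 96 h, 3 reads, taken here as the floor, equal 56.7 CPM (reads per 1000000 exon reads) in the GFP-positive and 37.7 CPM in the GFP-negative library at 72 h, and 42.6 and 47.2 CPM at 96 h. Experiments differ in assay, line and age at once, and each table was scaled on its own, so ratios were taken within a pair after TMM scaling. Direction in the 5 tables other than vmat2 follows the convention of the vmat2 table, and would turn for a whole table if that table used the opposite one. Scaling on library size alone moves the median log2 ratio of all genes by 0.62 in vmat2, 0.29 in otpb, -0.77 at 36 h and 0.13 at 48 h, so ratios at 36 h are relative to a scaling that matters. The catecholaminergic markers th, ddc, dbh, slc18a2 and slc6a3 together held 24 reads in the GFP-positive and 0 in the GFP-negative vmat2 library, and 6 and 0 in otpb. In the th:Gal4 line they held 355 and 54 reads at 36 h, then 596 and 133 at 48 h, and in the th:GFP line 38 and 0 at 72 h, then 26 and 0 at 96 h. Of these markers, ddc, dbh and slc6a3 had 0 reads in both GFP-positive libraries at 24 h. At 36 h slc18a2 had reads in GFP-negative cells only, and slc6a3 had 0 reads in both libraries. Markers of heart and hatching gland, cells outside the labelled type, were also higher in the GFP-positive libraries up to 48 h. Summed heart markers stood at 2265 CPM in GFP-positive and 26.4 CPM in GFP-negative vmat2 cells, 432 and 122 CPM in otpb cells, 1386 and 4.74 CPM at 36 h, and 210 and 14.99 CPM at 48 h. Summed hatching gland markers, the genes he1a, he1b and ctsl1b, stood at 638 and 38.3 CPM in vmat2 cells, 1696 and 107 CPM in otpb cells, 11580 and 22.2 CPM at 36 h, and 4009 and 144 CPM at 48 h. Other such markers varied in direction. The log2 ratio of summed leukocyte markers was 7.52 in vmat2, -0.10 in otpb, -0.33 at 36 h and -0.96 at 48 h. For summed liver, gut and yolk markers it was -1.51 in vmat2, -1.26 in otpb, 0.82 at 36 h and 1.85 at 48 h. The part of any of these cells in the ratios below was not tested.

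At 48 h, 5 of the 6 genes were at least 2-fold higher in GFP-positive cells, and the dihydropteridine reductase qdprb1 was the exception. At 36 h it was the reductases qdpra and qdprb1 that were at least 2-fold higher, and neither cyclohydrolase gene was. In both experiments at 24 h gch2 was lower in GFP-positive cells, and at 72 and 96 h the 6 genes had few reads. A gene was compared by fold where the library in which it was more frequent reached 5 CPM and 20 reads. In the vmat2 experiment only gch2 of the 6 passed this minimum and it was lower, as were 16.6% of the 6303 genes that passed, while 24.4% were higher. The otpb experiment gave the same count, 1 gene passing and lower, against 22.6% of 4666 genes lower and 12.2% higher. At 36 h, 5 of the 6 passed, PTS being below the minimum, and 2 were higher and 0 lower, against 14.3% of 9935 genes higher and 9.72% lower. At 48 h all 6 passed, and 5 were higher and 0 lower, against 17.6% of 10030 genes higher and 6.48% lower. The median log2 ratio of those that passed was 0.65 at 36 h and 3.14 at 48 h, beside -0.06 and -0.08 over all genes that passed. These medians cover different genes, since PTS enters only at 48 h. The shares over all genes depend on the scaling: on library size alone 40.3% were higher and 6.74% lower in vmat2, 18% and 16.5% in otpb, and 6.96% and 40.1% at 36 h. At 72 h none of the 6 passed, in data where 415 genes did, 6.99% of them higher and 18.6% lower. At 96 h none passed either, among 456 genes with 3.73% higher and 6.58% lower.

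**Figure D1:**
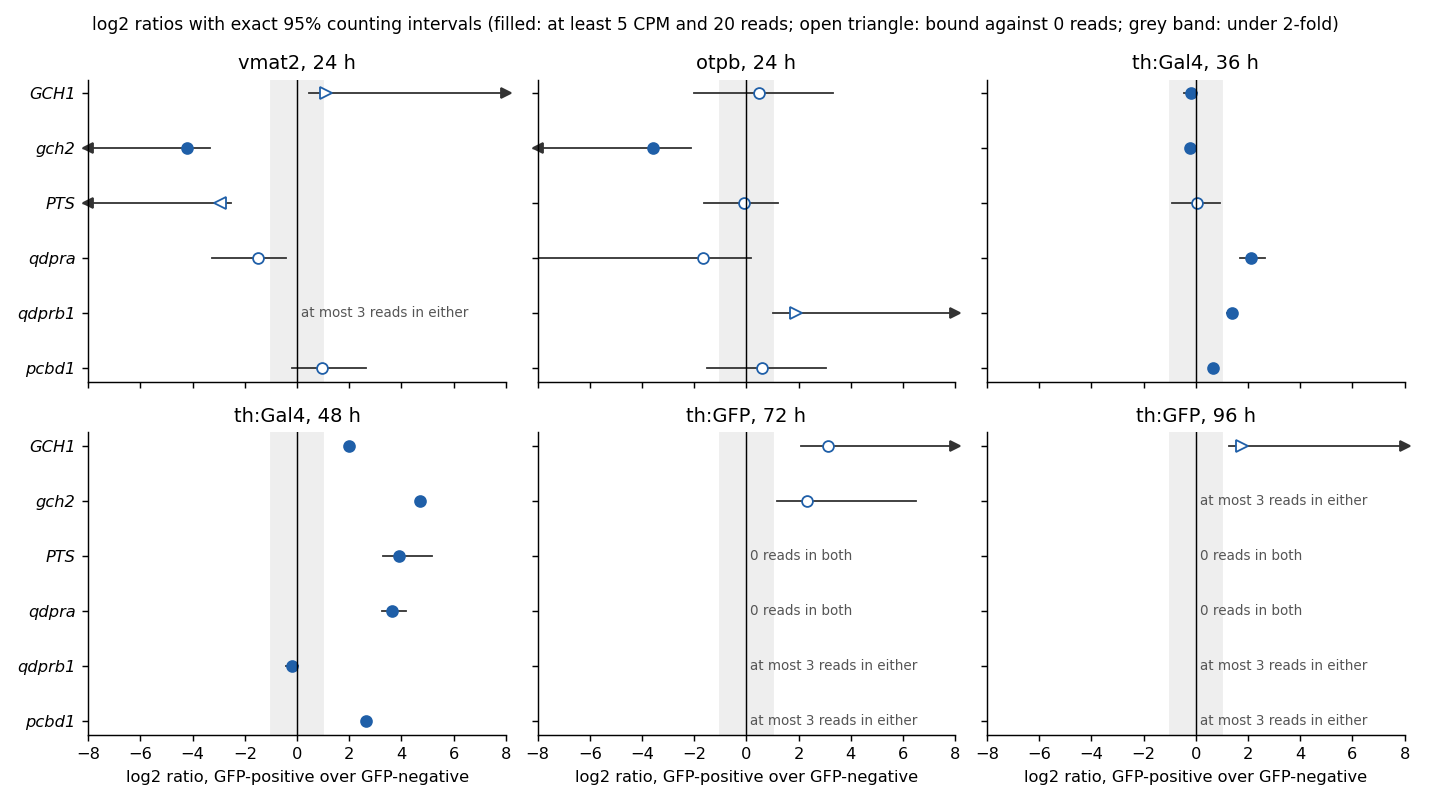
Ratios of GFP-positive over GFP-negative reads (log2, x axis) for the 6 genes (y axis), 1 panel per experiment, with exact 95% counting intervals; filled points passed the minimum of 5 CPM and 20 reads, open triangles are bounds against 0 reads, arrows run past the axis and the grey band is under 2-fold. At 48 h every gene but qdprb1 lies to the right of the band, and at 24 h gch2 lies to its left in both lines.

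The synthesis gene with the widest range was gch2. At 48 h it gave 106457 reads in GFP-positive and 4147 in GFP-negative cells, or 4256 and 150 CPM. That is 25.9-fold higher in GFP-positive cells (log2 ratio 4.69, interval 4.65 to 4.74), a ratio exceeded by 148 of the 10030 genes that passed the minimum. It ranked 24th by reads in the GFP-positive library, with 0.426% of all its exon reads. At 36 h the same line gave 1795 reads in GFP-positive and 3330 in GFP-negative cells, or 78.8 and 156 CPM, a log2 ratio of -0.21 (-0.30 to -0.13; -0.99 on library size alone). In CPM, which each table sets on its own total, the GFP-negative libraries thus gave near values at 36 and 48 h, and the GFP-positive library at 48 h stood far above the other 3.

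At 24 h gch2 was among the genes with the lowest ratios. The vmat2 experiment had 2 reads in GFP-positive and 62 in GFP-negative cells (log2 ratio -4.23, -8.34 to -3.35), and only 2 genes that passed the minimum had a smaller ratio. The otpb experiment had 1 read in GFP-positive and 57 in GFP-negative cells (-3.58, -10.00 to -2.14), with 23 genes below it. Both lines therefore gave at most 2 gch2 reads in sorted cells, whereas the rest of the embryo gave 62 and 57. At 72 h there were 13 reads in GFP-positive and 2 in GFP-negative cells (2.33, 1.16 to 6.49), and at 96 h 3 and 0 reads, which is at the floor.

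GCH1, the other cyclohydrolase gene, was not at least 2-fold lower in any experiment. It gave 8 reads in GFP-positive and 0 in GFP-negative vmat2 cells, 2.16-fold higher against the floor, with an interval that starts at a log2 ratio of 0.47. In otpb cells the reads were 3 and 4 (0.48, -2.03 to 3.31), too few to tell a direction. At 36 h, 227 reads in GFP-positive and 415 in GFP-negative cells gave a log2 ratio of -0.19 (-0.43 to 0.04), which does not separate the libraries. On library size alone it was -0.96 (-1.21 to -0.73), so the scaling decides whether equality is excluded. At 48 h, 3069 reads in GFP-positive and 780 in GFP-negative cells, or 123 and 28.2 CPM, gave 1.99 (1.87 to 2.10). The th:GFP libraries, although shallow, gave 18 reads in GFP-positive and 1 in GFP-negative cells at 72 h (3.12, 2.11 to 10.15). At 96 h the reads were 12 and 0, 3.44-fold higher against the floor, with an interval that starts at a log2 ratio of 1.26. With TMM scaling GCH1 reads were thus more frequent in GFP-positive cells in the 4 experiments whose interval excluded equality.

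**Figure D2:**
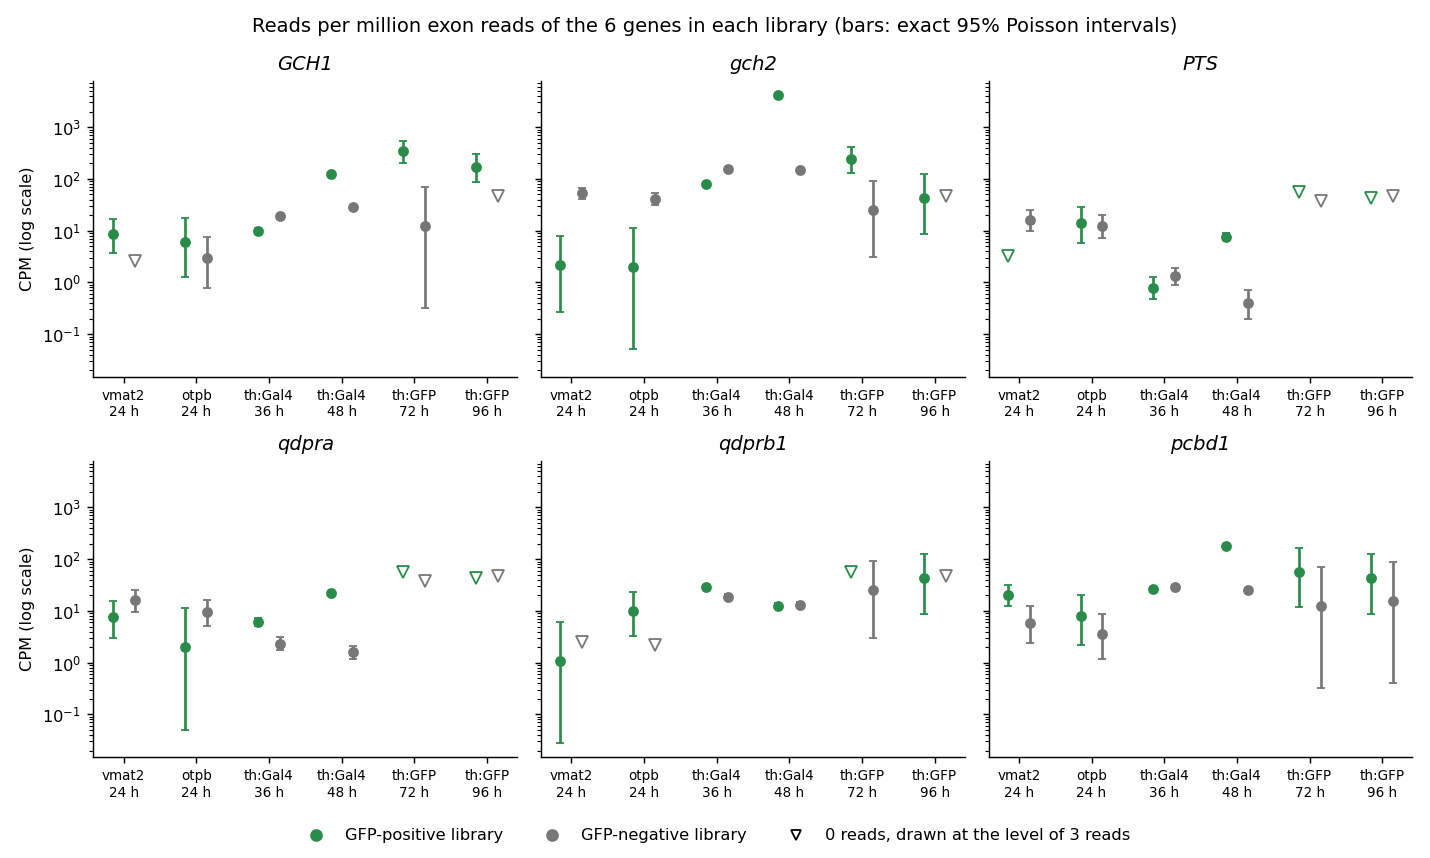
Level of each of the 6 genes (CPM, log axis) in GFP-positive (left) and GFP-negative (right) libraries of each experiment, 1 library per point, with exact 95% counting intervals and open symbols for libraries without a read. The gch2 point of GFP-positive cells at 48 h, 4256 CPM, stands above every other value of the polyA libraries at 36 and 48 h.

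Because gch2 and GCH1 catalyse the same reaction and are counted in the same library, the gch2 share of their summed reads does not depend on scaling between libraries. At 24 h it was 2 of 10 reads in GFP-positive vmat2 cells (interval 2.52% to 55.6%), against 100% in GFP-negative cells (62 of 62, 94.2% to 100%). In otpb it was 1 of 4 reads in GFP-positive cells (0.631% to 80.6%), against 93.4% in GFP-negative cells (57 of 61, 84.1% to 98.2%). The intervals of the GFP-positive and GFP-negative library do not overlap in either line. At 36 h the shares were 88.8% in GFP-positive cells (87.3% to 90.1%) and 88.9% in GFP-negative cells (87.9% to 89.9%), with overlapping intervals. At 48 h the share was higher in GFP-positive cells, 97.2% (97.1% to 97.3%), than in GFP-negative cells, 84.2% (83.1% to 85.2%). At 72 h it was 41.9% in GFP-positive cells (13 of 31 reads, 24.6% to 60.9%) and rested on 3 reads in GFP-negative cells. At 96 h it was 3 of 15 reads in GFP-positive cells (4.33% to 48.1%), with 0 reads of either gene in GFP-negative cells. The th:GFP cells thus sit below the th:Gal4 cells in this share, while line and age differ between them and cannot be told apart. Dividing the reads by exon length raises the polyA shares, since the GCH1 exons are longer, to 96.3% and 96.35% at 36 h, 99.1% and 94.6% at 48 h. In GFP-positive th:GFP cells the shares per kb were 70.4% at 72 h and 45.1% at 96 h.

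**Figure D3:**
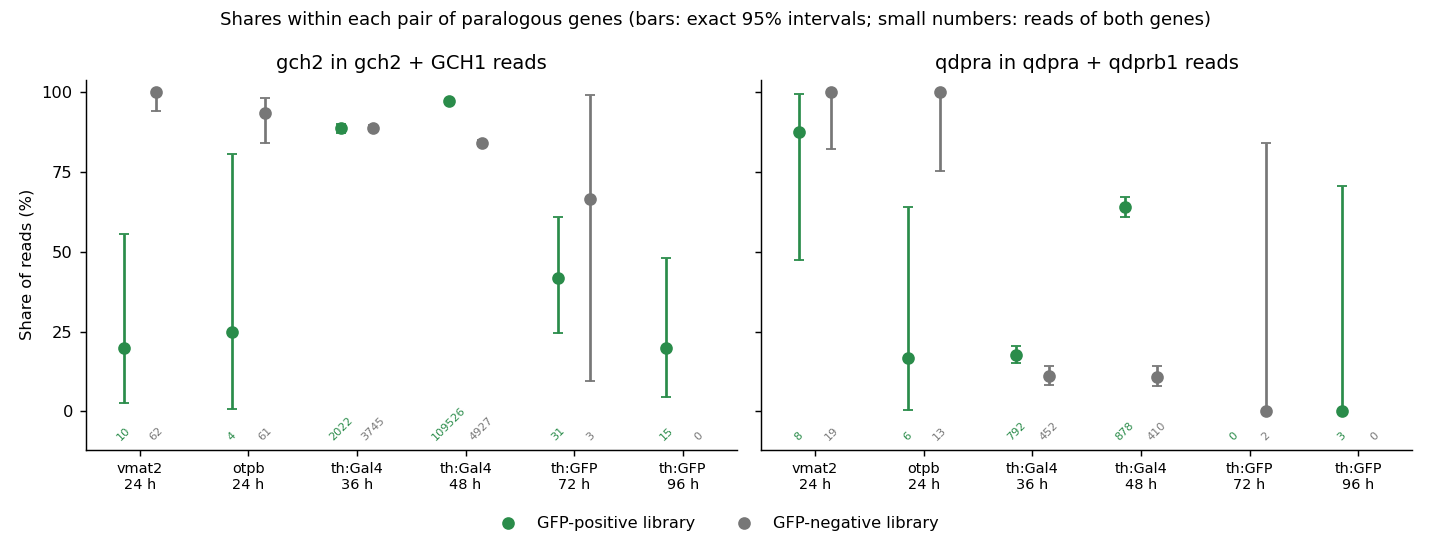
Share of gch2 in the reads of both GTP cyclohydrolase genes, and of qdpra in the reads of both dihydropteridine reductase genes (percent, y axis), in GFP-positive (left) and GFP-negative (right) libraries of each experiment, with exact 95% binomial intervals and the number of reads behind each share. At 48 h qdpra takes 64.1% in GFP-positive against 10.7% in GFP-negative cells.

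PTS, the second enzyme of synthesis, had few reads throughout. The vmat2 experiment gave 0 in GFP-positive and 19 in GFP-negative cells, 7.83-fold lower against the floor, with an interval that ends at a log2 ratio of -2.53. The otpb experiment gave 7 and 17 (log2 ratio -0.10, -1.63 to 1.22). At 36 h there were 18 reads in GFP-positive and 28 in GFP-negative cells (0.04, -0.90 to 0.94). At 48 h the 193 reads in GFP-positive and 11 in GFP-negative cells gave 3.92 (3.27 to 5.17), next to gch2 among the 6, with an interval that overlaps those of gch2 and of qdpra. No read was found at 72 or 96 h in any of the 4 libraries, which at this depth allows the levels given above for the floor.

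Recycling begins with pcbd1, whose product is also a cofactor of the liver transcription factor HNF1 in mammals. At 48 h it gave 4450 reads in GFP-positive and 714 in GFP-negative cells (log2 ratio 2.65, 2.54 to 2.77). At 36 h the reads were 606 in GFP-positive and 616 in GFP-negative cells (0.65, 0.49 to 0.82), and on library size alone this ratio has the other sign, -0.12. At 24 h, 19 reads in GFP-positive and 7 in GFP-negative vmat2 cells had a log2 ratio of 0.97 (-0.18 to 2.63), or 1.52 (0.48 to 3.29) on library size alone, so the scaling decides whether equality is excluded. In otpb cells 4 and 5 reads (0.59, -1.50 to 3.05) did not separate the libraries. At 72 and at 96 h there were 3 reads in GFP-positive and 1 in GFP-negative cells, at the floor.

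The reductase paralogues qdpra and qdprb1 had different patterns. At 36 h qdpra gave 140 reads in GFP-positive and 50 in GFP-negative cells (log2 ratio 2.11, 1.69 to 2.66), and at 48 h 563 and 44 (3.63, 3.25 to 4.17). At 36 h qdprb1 gave 652 reads in GFP-positive and 402 in GFP-negative cells (1.37, 1.19 to 1.56; 0.60 on library size alone, which is under 2-fold), and at 48 h 315 and 366 (-0.20, -0.43 to 0.02). At 48 h qdpra was therefore higher in GFP-positive cells while qdprb1 did not separate the libraries.

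The qdpra share of the reads of both reductases, free of scaling, was 17.7% in GFP-positive (15.1% to 20.5%) and 11.1% in GFP-negative cells (8.32% to 14.3%) at 36 h. At 48 h it was 64.1% in GFP-positive (60.9% to 67.3%) and 10.7% in GFP-negative cells (7.91% to 14.1%). The more abundant reductase transcript was thus qdpra in GFP-positive cells at 48 h and qdprb1 in the other 3 th:Gal4 libraries, and their exons are of similar length. At 24 h qdpra had 7 reads in GFP-positive and 19 in GFP-negative vmat2 cells (-1.48, -3.24 to -0.43; -2.58 to 0.23 on library size alone), and 1 and 13 in otpb cells (-1.66, -7.95 to 0.19). There qdprb1 had 1 and 0 reads in vmat2, and 5 and 0 in otpb. The otpb reads were 3.72-fold higher in GFP-positive cells against the floor, with an interval that starts at a log2 ratio of 1.03. The qdpra share in vmat2 was 87.5% in GFP-positive cells (7 of 8 reads, 47.4% to 99.7%) and 100% in GFP-negative cells (19 of 19, 82.4% to 100%), with overlapping intervals. In otpb it was 16.7% in GFP-positive cells (1 of 6 reads, 0.421% to 64.1%) and 100% in GFP-negative cells (13 of 13, 75.3% to 100%). At 72 and 96 h qdpra had no read, and qdprb1 had 0 in GFP-positive and 2 in GFP-negative cells at 72 h, and 3 and 0 at 96 h.

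Per length, the order of the 6 genes in polyA libraries can be read from their RPKM (reads per kilobase of exon and 1000000 reads of the library). In GFP-positive cells at 48 h gch2 stood at 1880 RPKM and pcbd1 at 176, followed by qdpra at 18.7 (17.2 to 20.3), GCH1 at 16.5 (15.9 to 17.1), PTS at 14.6 (12.7 to 16.9) and qdprb1 at 9.85. The counting intervals of GCH1 and PTS overlap, so these neighbours in the order are not separated, and those of the other neighbours do not. In GFP-negative cells at 48 h gch2 was again first at 65.8 RPKM, then pcbd1 at 25.4, qdprb1 at 10.3, GCH1 at 3.76, and qdpra at 1.31 and PTS at 0.750, whose intervals overlap. At 36 h the order in GFP-positive cells was gch2 at 29.7 RPKM, pcbd1 at 22.4, qdprb1 at 19.1, qdpra at 4.35, and PTS at 1.28 and GCH1 at 1.14 with overlapping intervals. In GFP-negative cells at 36 h it was gch2 at 56.2 RPKM, pcbd1 at 23.3, qdprb1 at 12.0, and GCH1 at 2.13, PTS at 2.03 and qdpra at 1.59, which overlap. In all 4 th:Gal4 libraries gch2 and pcbd1 were thus the most abundant of the 6 transcripts per length. In GFP-positive cells at 72 h gch2 stood at 98.8 RPKM (52.6 to 169), pcbd1 at 51.1 (10.5 to 149) and GCH1 at 41.5 (24.6 to 65.7). At 96 h pcbd1 stood at 42.5 RPKM, qdprb1 at 33.6, GCH1 at 23.1 and gch2 at 19.0, and as at 72 h the intervals overlap, so no order can be read there.

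Within the th:Gal4 line the ratios at 48 h can be set beside those at 36 h, with the caution that each age has 1 pair and its own scaling. The differences below leave out the prior count of 2 used in the ratios above, so that of PTS departs from those ratios. The log2 ratio at 48 h minus that at 36 h was 4.91 for gch2 (counting interval 4.82 to 5.00), 4.11 for PTS (2.88 to 5.33) and 2.18 for GCH1 (1.92 to 2.44). It was 2.00 for pcbd1 (1.80 to 2.20) and 1.53 for qdpra (0.89 to 2.17). For qdprb1 it was -1.58 (-1.86 to -1.30). All 6 intervals excluded 0, with 5 genes on one side and qdprb1 on the other, and on library size alone the signs were the same, with 5.82 for gch2 and -0.67 for qdprb1. The recycling genes pcbd1, qdpra and qdprb1 together took 40.7% of the reads of the 6 genes in GFP-positive (39.0% to 42.3%) and 22.1% in GFP-negative cells (20.9% to 23.3%) at 36 h, and 4.63% (4.51% to 4.75%) and 18.5% (17.6% to 19.5%) at 48 h. With gch2 left out the recycling share was 85.1% in GFP-positive and 70.7% in GFP-negative cells at 36 h, and 62.0% and 58.7% at 48 h. At 48 h the order of the libraries thus turns with gch2 left out, and per kb of exon it turns back, with 86.8% in GFP-positive and 89.1% in GFP-negative cells.

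Among 7 matched of 10 listed further genes of cofactor synthesis and its regulation, a single one was at least 2-fold higher at 48 h and another at 36 h, of 4 that passed the minimum at each age and 0 lower. At 48 h it was akr1b1, an aldose reductase with 8275 reads in GFP-positive and 484 in GFP-negative cells (log2 ratio 4.10, 3.98 to 4.24), beside 233 and 467 at 36 h (-0.32). At 36 h it was gchfr, the feedback regulator that binds GTP cyclohydrolase, with 145 and 83 reads (1.46, 1.08 to 1.89; 0.70 on library size alone, which is under 2-fold), beside 155 and 147 at 48 h (0.09, -0.25 to 0.42). Dihydrofolate reductase, dhfr, which can return dihydrobiopterin to the reduced form, had 1518 reads in GFP-positive and 1968 in GFP-negative cells at 36 h (0.30), and 807 and 1564 at 48 h (-0.94). The sepiapterin reductase gene spra was under the minimum, with 31 reads in GFP-positive and 19 in GFP-negative cells at 36 h (1.28, 0.51 to 2.29), and 31 and 8 at 48 h (1.73, 0.81 to 3.30). The carbonyl reductase genes differed in level: cbr1l had 1121 and 1318 reads at 36 h (0.44) and 3120 and 2045 at 48 h (0.62), while cbr1 had 22 and 35, and 92 and 83. In vmat2 cells, where 1 of 2 that passed was higher and 0 lower, cbr1l had 69 reads in GFP-positive and 15 in GFP-negative cells (1.78, 1.08 to 2.81) and dhfr 53 and 58 (-0.42). In otpb cells dhfr alone passed, with 30 and 46 reads (0.52), and cbr1l had 12 and 24 (0.14). The median of the 4 that passed was 0.37 at 36 h and 0.35 at 48 h. Over all genes that passed, 14.3% were higher and 9.72% lower at 36 h, and 17.6% and 6.48% at 48 h. In vmat2 24.4% were higher and 16.6% lower.

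Enzymes that use the cofactor were also set beside the 6 genes. At 48 h both users that passed the minimum were at least 2-fold higher, th and pah, beside 17.6% of all genes. The cells were sorted by a th:Gal4 driver, so the ratio of th is not independent of the sort. Phenylalanine hydroxylase, pah, had 5048 reads in GFP-positive and 212 in GFP-negative cells (log2 ratio 4.57, 4.39 to 4.79), and th had 272 and 31 (3.07, 2.61 to 3.73). Per length, pah stood at 70.8 RPKM in GFP-positive cells and th at 5.93, so the phenylalanine hydroxylase transcript was the more abundant.

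At 36 h, 1 of 3 users that passed was higher and 0 lower, beside 14.3% and 9.72% of all genes. The higher one was the neuronal nitric oxide synthase nos1, with 418 reads in GFP-positive and 26 in GFP-negative cells (4.56, 4.11 to 5.32). The others were pah with 177 and 156 (0.85, 0.54 to 1.18) and the tryptophan hydroxylase tph1b with 46 and 114 (-0.62, -1.16 to -0.13). At 48 h nos1 had 111 reads in GFP-positive and 6 in GFP-negative cells (3.83, 3.05 to 5.70), under the CPM minimum. The inducible type synthase nos2b had 68 and 3 at 36 h, and 44 and 3 at 48 h, so reads of both synthases were more frequent in GFP-positive cells at both ages. Tryptophan hydroxylase reads were not set apart to that degree: tph2 had 50 in GFP-positive and 31 in GFP-negative cells at 36 h and 85 and 98 at 48 h, and at 48 h tph1b had 124 and 105 and tph1a 26 and 11. Another listed user of the cofactor, th2, had 20 and 11 at 48 h. In the 24 h experiments nos1 alone passed, with 39 and 21 reads in vmat2 (0.55, -0.21 to 1.43) and 44 and 63 in otpb (0.62, 0.05 to 1.22).

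For the catecholamine enzymes themselves, th had 15 reads in GFP-positive and 0 in GFP-negative vmat2 cells, 1 and 0 in otpb cells, 44 and 18 at 36 h (1.83, 1.15 to 2.85), 13 against 0 at 72 h and 10 against 0 at 96 h. The decarboxylase ddc had 107 and 24 reads at 36 h (2.71), 241 and 57 at 48 h (2.05), 5 against 0 at 72 h and none in either library at 96 h. Dopamine beta-hydroxylase, dbh, had 204 and 4 at 36 h (5.67), 49 and 34 at 48 h (0.51, -0.12 to 1.22), 18 against 0 at 72 h and 11 against 0 at 96 h. Per length, GCH1 stood at 41.5 RPKM in GFP-positive cells at 72 h and 23.1 at 96 h, beside 122 and 78.1 for th. At 48 h the gch2 reads of the GFP-positive library exceeded those of th, ddc and dbh together by far, and per length gch2 stood at 1880 RPKM against 5.93 for th.

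GTP, the starting substrate, comes from purine synthesis, and 13 of 16 listed genes of that pathway were matched. At 48 h 12 passed the minimum, with a median log2 ratio of 1.13. Beside 17.6% of all genes higher and 6.48% lower, 6 were at least 2-fold higher in GFP-positive cells and 0 lower. Among them were paics, with 9893 reads in GFP-positive and 2400 in GFP-negative cells (2.06), and impdh1b, the inosine monophosphate dehydrogenase on the branch to GTP, with 10329 and 3580 (1.54). At 36 h 1 of 12 was higher and 1 lower, with a median of -0.28, the higher one being impdh1a with 114 reads in GFP-positive and 19 in GFP-negative cells (3.11) and the lower one gart with 41 and 150 (-1.16). This balance, beside 14.3% of all genes higher and 9.72% lower, rests on the scaling. On library size alone 7 were lower, with a median of -1.05, beside 40.1% of all genes lower. At 24 h 0 of 10 were higher and 3 lower in vmat2 (ppat, paics and impdh1b), beside 24.4% and 16.6% of all genes. The median was -0.83 beside 0.08 over all genes. In otpb 0 of 9 were higher and 3 lower (ppat, adsl and gart), beside 12.2% and 22.6% of all genes. The median there was -0.47 beside -0.32. At 72 and 96 h no gene of these lists passed the minimum.

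**Figure D4:**
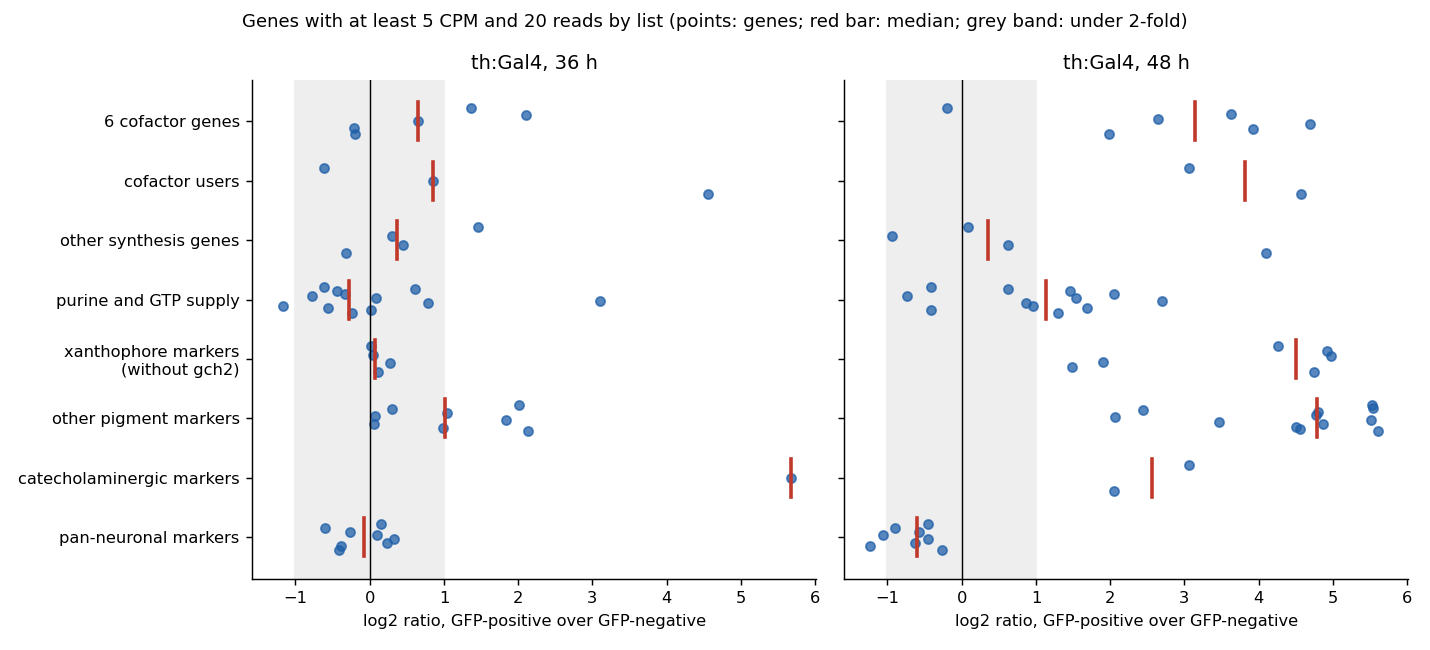
Log2 ratio, GFP-positive over GFP-negative reads (x axis), of the genes that passed the minimum at 36 h (left) and 48 h (right) in the th:Gal4 line, by gene list (y axis), with 1 point per gene, a red bar at the list's median, no error bars, and a grey band for under 2-fold. At 48 h 5 of the 6 cofactor genes and all pigment markers that passed lie right of the band, while the pan-neuronal markers have a median of -0.60.

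In the th:Gal4 line at 48 h, all pigment markers that passed the minimum were at least 2-fold higher in GFP-positive cells. So were 5 of the 6 cofactor genes, 3 of 3 hatching gland markers (median log2 ratio 4.59) and 4 of 4 heart markers that passed (3.73). Over all genes that passed, 17.6% were higher and 6.48% lower at 48 h, and 14.3% and 9.72% at 36 h. At 36 h the medians of hatching gland and heart markers were larger, 9.70 over 3 genes and 8.61 over 5. That of the cofactor genes was smaller at 36 h, 0.65 over 5 genes against 3.14 over 6 at 48 h. The sets differ, since PTS, with 0.04 at 36 h and 3.92 at 48 h, passed the minimum only at 48 h. With gch2 left out, 8 xanthophore and pteridine pigment markers summed to 374 CPM in GFP-positive and 18.0 CPM in GFP-negative cells at 48 h, and 6 of the 6 that passed the minimum were at least 2-fold higher and 0 lower, with a median log2 ratio of 4.50. The 2 with most reads were aox3, an aldehyde oxidase gene, with 4077 reads in GFP-positive and 152 in GFP-negative cells (4.74), and slc2a15b, a sugar transporter gene, with 3416 and 112 (4.92). At 36 h the same markers summed to 21.4 CPM in GFP-positive and 40.6 CPM in GFP-negative cells, and of 4 that passed 0 were higher and 0 lower. After TMM scaling the log2 ratio of these sums was -0.15 (-0.31 to 0.01).

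Markers of the other pigment cells, mostly melanophore genes, summed to 10060 CPM in GFP-positive and 237 CPM in GFP-negative cells at 48 h, with 12 of 12 higher and a median of 4.79. At 36 h they summed to 301 CPM in GFP-positive and 166 CPM in GFP-negative cells, with 4 of 8 higher, dct, tyrp1b, silva and slc45a2, and 0 lower. The 2 with most reads at both ages were tyrp1b, with 96738 and 2120 reads at 48 h (5.52) and 2238 and 885 at 36 h (2.01), and silva, with 65072 and 1441 at 48 h (5.51) and 1883 and 838 at 36 h (1.84). By contrast 8 pan-neuronal markers summed to 781 CPM in GFP-positive and 1390 CPM in GFP-negative cells at 48 h, with 0 higher and 2 lower, elavl3 and snap25a. Liver, gut and yolk markers, a list that holds pah, summed to 378 CPM in GFP-positive and 95.9 CPM in GFP-negative cells at 48 h, with 2 of 5 higher, pah and the intestinal fatty acid binding protein gene fabp2, and 0 lower. The part of pigment, hatching gland, heart, liver or other cells in the cofactor gene ratios at 48 h was not tested. In bulk libraries such as these, fewer cells of a type and less RNA per cell cannot be told apart.

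At 24 h some xanthophore markers were low beside gch2, though their sums without gch2 differed less than gch2 did. In vmat2 these sums were 80.6 CPM in GFP-positive and 81.8 CPM in GFP-negative cells (log2 ratio after TMM scaling -0.67, -1.14 to -0.23). In otpb they were 42.4 and 68.0 CPM (-0.95, -1.75 to -0.29). In vmat2, of 3 xanthophore markers that passed besides gch2, 2 were lower, aox3 with 0 reads in GFP-positive and 31 in GFP-negative cells and pax7a with 1 and 30. The other, csf1ra with 60 and 1, was higher, and over all genes 16.6% were lower and 24.4% higher. The gene csf1ra is also expressed in macrophages, and leukocyte markers summed to 1307 reads in GFP-positive and 4 in GFP-negative cells of that experiment. The part of leukocytes or of any other cells in the ratio of csf1ra, or of the xanthophore markers that were lower, was not tested. In otpb 1 of 2 was lower and 0 higher, against 22.6% of all genes lower and 12.2% higher. The lower one was pax7b with 2 and 23 reads, beside aox3 with 7 and 29 (-0.79).

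Over the 4 experiments in which gch2 passed the minimum, and among 3411 genes that passed in the same 4, the smallest root mean square difference of log2 ratio from gch2 was that of aox3, at 1.41. Next were myhz1.3, a fast myosin heavy chain gene, at 1.53, and tnnt2c, a troponin T gene, at 1.82. These genes share libraries and depth with gch2, and the measure describes likeness over 4 pairs only. Even the nearest gene, aox3, differed from gch2 in otpb, with a log2 ratio of -0.79 beside -3.58. The ratios at 24 h rest on few GFP-positive reads, 2 in vmat2 and 1 in otpb for gch2, and 0 and 7 for aox3. No such measure was taken for the other 5 genes, which passed in at most 2 experiments.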

How the data were processed

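The 6 genes and all lists were chosen with earlier results of these data known. RNA of 12 libraries, 1 per group, was analysed, with groups taken from the sample titles. Sheet names give the Zv9 build for the vmat2 and otpb experiments and name no build for the th:Gal4 and th:GFP ones. The aligner is not given in the sources used here. Per the file headers, the authors deposited whole-number counts of exon reads and RPKM values for both vmat2 libraries. In all 6 tables they also deposited 2 comparison columns, the difference and the signed fold of RPKM, each recorded here as a score for want of a fixed range. The other 5 tables do not name their libraries, so 174 columns were not tied to a sample and not used. Their reads were recovered from the difference, the fold change and the exon length of the vmat2 table. Values above 0 lay within 0.02 of whole reads for 100.0% in all 12 libraries, and recovered reads equalled the deposited counts in all 17237 vmat2 features with a difference. There the GFP-negative RPKM was subtracted from the GFP-positive one in each of 32312 features, and the same direction was taken elsewhere. A difference of 0 was read as 0 reads in both libraries, since an equal level above 0 would need at least 35812 reads at 72 h or 43031 at 96 h. Features with exon length 0, 4483 in number, have no recovered reads.

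Reads were scaled within a pair by TMM (edgeR 4.0.16, R 4.3.3, GFP-negative library as base) over genes with at least 10 reads in the pair, a restriction set after a test on simulated data with all genes gave intervals that covered too rarely at 72 h. Log2 ratios used a prior count of 2, and intervals are exact Clopper-Pearson 95% intervals of the reads without it. Differences between ages were taken without the prior count, and their intervals assume normal error of log counts. Against 0 reads, folds use a floor of 3 reads per library and leave out counting error, which the intervals cover. Genes with at least 5 CPM and 20 reads in the larger library were compared at 2-fold. Alternatives were library size, DESeq2 size factors, library size without the top features, a prior count of 0.5, other minimums, 4-fold, unique or whole-gene vmat2 reads and reads per kb. TMM over all genes and gch2 shares per kb were added after seeing the data. The top features were the 4 with most reads in each library of a pair, left out of both libraries. Named genes are the 6; cofactor synthesis and user genes with at least 20 reads in a library; th, ddc and dbh; the 3 genes most like a member over at least 4 experiments; and the 2 marker genes with most reads per list. Purine genes and the markers beyond that rule were named after their values were seen. The files gave no sequence used here.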

Additional observations from a re-analysis of the deposited data

Results flagged for a closer look

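The gch2 ratio of the th:Gal4 line had opposite signs at 36 and 48 h, and the log2 ratio at 48 h minus that at 36 h was 4.91. In CPM, which uses library size alone, the GFP-positive library held less gch2 than the GFP-negative one at 36 h, 78.8 against 156 CPM. At 48 h it held more, 4256 against 150 CPM. With the TMM scaling behind the 4.91, the log2 ratios were -0.21 at 36 h and 4.69 at 48 h. With 1 pair at each age the difference between ages was not tested, and its interval of 4.82 to 5.00 covers counting error only.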

How the results depend on the processing

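No ratio of the 6 genes that was called at least 2-fold changed sign under any alternative, and 285 of the compared values stayed within their limits while 62 moved. On library size alone the log2 ratios at 36 h became -0.96 for GCH1, -0.99 for gch2, 1.36 for qdpra, 0.60 for qdprb1 and -0.12 for pcbd1. Without the top features of both libraries they became -0.93, -0.96, 1.38, 0.63 and -0.09. At 48 h library size gave 2.12 for GCH1, 4.83 for gch2 and 2.78 for pcbd1. The count of the 6 genes higher at 36 h was 2 with TMM. It was 1 under library size, without the top features, under a stricter minimum of 10 CPM and 50 reads and at 4-fold. The share of all genes higher was then 6.96%, 7.16%, 13.8% and 5.66%. With at least 5 reads and no CPM minimum, 1 of 5 was higher and 3 lower in vmat2, against 27% and 19.6% of all genes, and 1 of 4 higher and 2 lower in otpb, against 19.6% and 24.9%. At 72 h 2 of 2 were higher, against 14.6% of all genes, and at 96 h 1 of 1, against 11.7%.

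For the lists at 36 h, library size and leaving out the top features moved the purine median to -1.05 and -1.03, with 7 and 6 lower. Of all genes 40.1% and 38.5% were then lower. The other synthesis median moved to -0.40 and -0.37, with 0 higher and 1 lower under both. The user median moved to 0.09 and 0.11, with 1 lower under both. The stricter minimum gave 0 purine genes higher and 0 lower, 0 other synthesis genes higher and a user median of 4.56 at 36 h, and 1 purine gene lower in otpb. At 4-fold, 0 purine genes were lower in vmat2, in otpb and at 36 h, 2 were higher at 48 h, and 0 other synthesis genes were higher at 36 h. Without the CPM minimum 4 users and 2 other synthesis genes were higher at 36 h, and 2 other synthesis genes at 48 h. Library size gave a purine median of -0.22 in vmat2. The cause of these moves was not tested, beyond the fewer or more genes a minimum admits.

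Per kb of exon the gch2 share was 96.3% in GFP-positive and 96.35% in GFP-negative cells at 36 h, 99.13% and 94.59% at 48 h, and 70.39% in GFP-positive cells at 72 h. The recycling share was 58.85% in GFP-positive and 37.94% in GFP-negative cells at 36 h, and 9.674% and 34.47% at 48 h. In GFP-positive cells it was 26.69% at 72 h, from 3 of 34 reads, and 64.43% at 96 h, from 6 of 21 reads. Undivided by length these shares were 8.82% (1.86% to 23.7%) and 28.6% (11.3% to 52.2%), with overlapping intervals. The GFP-negative libraries held only 6 reads of the 6 genes at 72 h and 1 at 96 h. NanoCAGE reads come from 5′ ends, so no share per kb was taken at 24 h. No paired analysis was possible because each comparison holds 1 pair of libraries sharing 1 replicate number. A single fit over the 6 pairs, which differ in assay, line and age, was not run. Depth limits the 72 and 96 h libraries most, where 3 reads equal between 37.7 and 56.7 CPM.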
